A study of Mus musculus with 16 samples.

Results

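Gene expression was compared between 4 arrays of mouse dendritic cells given IMQ and PA together and 4 arrays of mock-treated cells, out of the 16 arrays of the series. The 8 arrays were chosen by their treatment labels and by no measured value, and the comparison covered 22180 genes with 1 symbol each. Bone marrow cells of male C57/B6 mice had spent 10 days in culture with 20 ng/ml of GM-CSF, and treatment lasted 24 h. PA, read here as the saturated fatty acid palmitic acid, was given at 0.5 mM as a complex with albumin (BSA), at 6 molecules of PA to 1 of BSA. IMQ, read here as imiquimod, an agonist of the endosomal RNA sensor TLR7, has its dose labelled as 3 uM in one place and as 3 ug/ml in another. The combined group received both agents, the mock group neither, and the labels do not say whether mock cells received albumin. The other 2 groups, PA alone and IMQ alone (4 arrays each), are used below only to place the net state. The labels call the replicates biological without naming animals or cultures, so p-values measure the spread between these arrays.

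TLR7 recruits the adaptor MyD88 and activates NF-kB and interferon regulatory factors, which drive cytokine genes, co-stimulatory molecules and interferon-stimulated genes. Saturated fatty acids enter cells through carriers such as CD36, are oxidised in mitochondria or stored in lipid droplets, and in excess disturb the membrane of the endoplasmic reticulum (ER). ER stress is sensed by IRE1, PERK and ATF6, which raise ER chaperones, the machinery of ER-associated degradation and, through the factor ATF4, genes of amino acid supply. IL-23, a heterodimer of the subunits encoded by Il23a and Il12b, is a dendritic cell cytokine that sustains interleukin-17 producing lymphocytes. IL-12 shares the Il12b subunit and pairs it with that of Il12a.

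Values are log2 RMA values, and a change is the combined group mean minus the mock group mean on this scale, ± the fitted standard error, with n = 4 in each group. A gene was called where the limma test over all 16 arrays gave an adjusted p under 0.05. A group mean below 4.93 is called dim, since 95% of the means of 1447 sensory receptor genes fell below that value. Where a change starts or ends in a dim group its size is written as "at least". Of 14 measured markers of GM-CSF dendritic cells, none was dim in all groups, and the defining genes Itgax (CD11c, mock mean 11.09) and H2-Aa (an MHC class II chain, 11.26) were high. Of 12 macrophage markers, 0 were dim in all groups as well. The log2 of the summed linear values in mock was 14.7 to 14.8 for the macrophage markers and 14.2 for the dendritic cell markers. Markers of lymphocytes were dim in every group for 10 of 11 genes, and those of mast cells, basophils and eosinophils for 8 of 12. Arrays of 1 group correlated across genes at 0.994 to 0.996, and 0 pairs held identical values. Mock replicate 4 stood apart from the other mock arrays in inflammatory genes. The median of 53 cytokine, chemokine and NF-kB genes was 7.62, 7.70 and 7.72 on mock replicates 1 to 3 and 7.37 on replicate 4, and 9.97 to 10.03 on the combined arrays. The arrays with PA alone, also without IMQ, spread more widely, at 7.41, 7.19, 7.59 and 7.81.

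With both agents, 8097 of 22180 genes (36.5%) were called against mock, 4085 higher (18.4%) and 4012 lower (18.1%). A change of at least 1, which is 2-fold, was reached by 677 higher and 586 lower genes, and one of at least 2 by 190 and 111. The median change over all genes was -0.01. In 7252 of the called genes the 4 combined values did not overlap the 4 mock values. Because these are bulk cultures, fewer cells of a type and less RNA per cell cannot be told apart in any change below. Without mock replicate 4, 7599 genes were called, 3854 higher and 3745 lower.

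**Figure D1:**
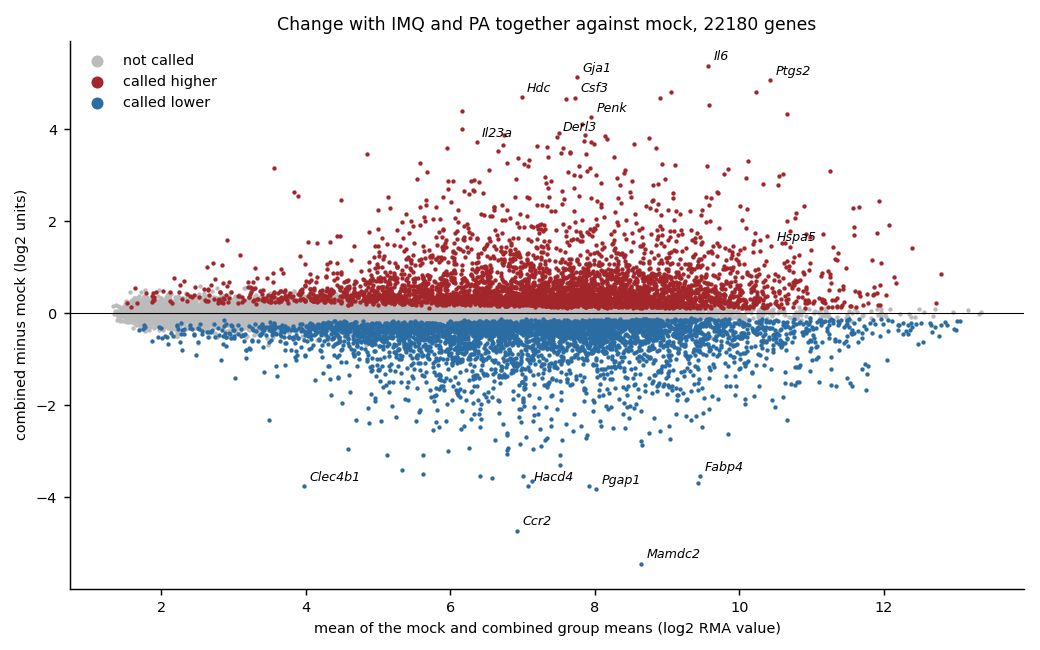
Change between the combined and the mock group for each of 22180 genes (vertical axis, log2 units) against the mean of the 2 group means (horizontal axis, log2 RMA value). Red points are the 4085 genes called higher, blue points the 4012 called lower and grey points the genes not called. Named genes reach from Il6 at 5.38 to Mamdc2 at -5.44.

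Il23a was at 4.43, 4.48, 4.35 and 4.76 on the 4 mock arrays and at 8.23, 8.17, 8.34 and 8.15 on the 4 combined arrays. The groups did not overlap, and since the mock mean was dim the change was at least 3.72 ± 0.11 (adjusted p = 2.72e-13). PA alone left Il23a at 4.33, 4.39, 4.61 and 4.63, within the mock range but for 1 value just below it, and IMQ alone took it to 4.95, 5.07, 5.44 and 5.29. The combined arrays thus stood above IMQ alone by 3.04 ± 0.11 (adjusted p = 2.15e-11). Il12b, the subunit shared by IL-12 and IL-23, was at 8.49, 8.68, 8.67 and 8.03 in mock and at 11.79, 11.76, 11.78 and 11.81 with both agents. It rose by 3.31 ± 0.12 (adjusted p = 2.02e-12), and the highest mock value lay below the lowest combined one. IMQ alone already brought Il12b to 11.25, 11.20, 11.26 and 11.20, and the combined group exceeded that by 0.55 ± 0.12 (adjusted p = 0.00280). Il12a, the partner of Il12b in IL-12, went from 6.08, 6.06, 6.20 and 4.75 to 9.82, 9.88, 9.88 and 9.96, a rise of 4.11 ± 0.26 (adjusted p = 1.68e-09). Its combined minus IMQ difference was -0.47 ± 0.26, which did not pass the test (adjusted p = 0.238).

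**Figure D2:**
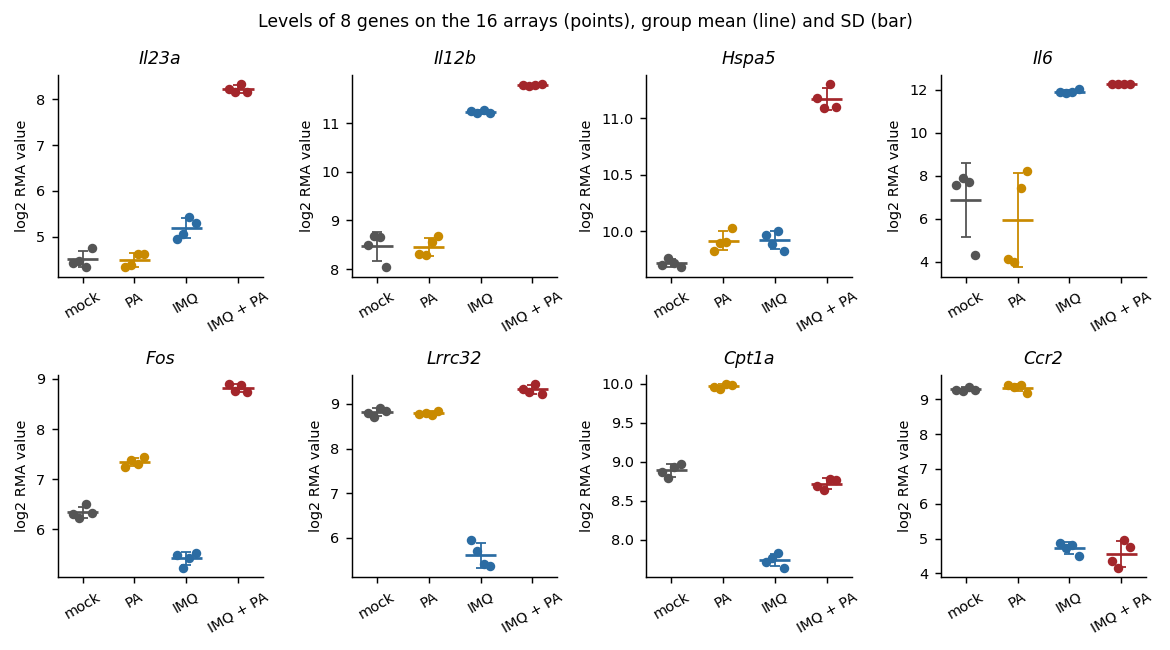
Levels of 8 genes on all 16 arrays (points, log2 RMA value), with the group mean (line) and SD (bar), for mock, PA, IMQ and the combined treatment. Il23a and Hspa5 are high with both agents together, Il12b and Il6 already with IMQ alone, Fos and Lrrc32 lie below mock with IMQ and above it with both, Cpt1a ends near mock and Ccr2 stays low.

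Of 20 measured cytokine genes, 18 rose against mock and 0 fell, with a median change of 2.45 against -0.01 for all genes. With IMQ alone, where 34.8% of all genes were called, 17 were higher and 1 lower, with a median of 1.96. Il15 (-0.17 ± 0.07) and Ifnb1, which was dim in every group, did not pass the test. Il6, an acute inflammatory cytokine, had the largest rise of any gene the naming rule admitted. It was at 7.57, 7.90, 7.71 and 4.32 on the mock arrays and at 12.26, 12.25, 12.25 and 12.27 on the combined arrays, so the combined arrays lay close together while mock replicate 4 lay far below the other mock arrays. The change was 5.38 ± 0.88 (adjusted p = 0.000110) with all mock arrays, 4.53 without mock replicate 4 and 7.93 against mock replicate 4 alone. Csf3, which encodes the granulocyte growth factor G-CSF, rose from 5.37, 4.92, 5.43 and 5.79 to 10.10, 9.97, 10.19 and 9.98, a change of 4.68 ± 0.17 (adjusted p = 2.31e-12). IMQ alone had raised Csf3 by 1.95, and the combined group stood 2.74 ± 0.17 above it (adjusted p = 8.05e-09). Il1b rose by 2.43 ± 0.36 and Tnf by 2.36 ± 0.08 (adjusted p = 4.22e-05 and 8.68e-13). Tnf, which encodes a central early cytokine, was at 8.36, 8.51, 8.55 and 8.17 in mock and 10.67, 10.81, 10.81 and 10.76 with both agents, while its IMQ arrays were higher still at 11.35, 11.45, 11.43 and 11.31. Il10, an anti-inflammatory cytokine with a dim mock mean, was higher by at least 1.82 ± 0.14 (adjusted p = 2.17e-08).

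Chemokines rose in 15 of 16 measured genes, with a median change of 2.76, and 0 fell. The list also had 15 higher and 0 lower with IMQ alone, with a median of 2.71. Cxcl1, Cxcl2, Cxcl3 and Cxcl5, which attract neutrophils, led them at 4.82 ± 0.44, 4.68 ± 0.45, 4.80 ± 0.89 and 4.66 ± 0.15 (adjusted p = 1.63e-07, 3.12e-07, 0.000369 and 5.79e-13). Cxcl3 was at 8.66, 9.15, 9.10 and 4.40 in mock and 12.65, 12.60, 12.57 and 12.71 with both agents, and mock replicate 4 again stood far below. Without that array the changes were 4.32 for Cxcl1, 4.11 for Cxcl2, 3.66 for Cxcl3 and 4.50 for Cxcl5. Ccl24, dim in every group, did not pass the test. Cxcl16, a membrane-bound chemokine, was called at 0.19 ± 0.04 (adjusted p = 0.00175) and also met the equivalence test described below, and its call was lost after repeated quantile normalization, at 0.10 (adjusted p = 0.0919). The equivalence result of Cxcl16 was kept in 9 of 28 alternative settings. It was lost with any mock, PA or combined array left out. At an unadjusted p under 0.05 in limma, 1 cytokine (Il15) and 0 chemokines were lower.

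All 17 measured genes of the NF-kB list rose, with a median change of 1.73. All 17 were also higher with IMQ alone, with a median of 1.66. Ptgs2, the inducible prostaglandin synthase COX-2, was at 8.49, 8.95, 8.84 and 5.30 in mock and at 13.00, 12.93, 12.97 and 12.96 with both agents, a change of 5.07 ± 0.88 (adjusted p = 0.000202) that was 4.20 without mock replicate 4. Nos2, the inducible nitric oxide synthase, rose by 4.53 ± 0.48 (adjusted p = 8.89e-07), or 3.95 without that array. Nfkbiz, an inducible IkB protein, rose by 3.11 ± 0.10 and Socs3, a cytokine feedback inhibitor, by 2.84 ± 0.11. Among the 53 inflammatory genes the median SD was 0.18 over the mock arrays and 0.05 over the combined arrays, and mock replicate 4 was the lowest mock array for 38 of them. The count of 18 cytokines, 15 chemokines and 17 NF-kB genes called higher was also reached without mock replicate 4. In that fit 1 cytokine was called lower, against 0 with all arrays.

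**Figure D3:**
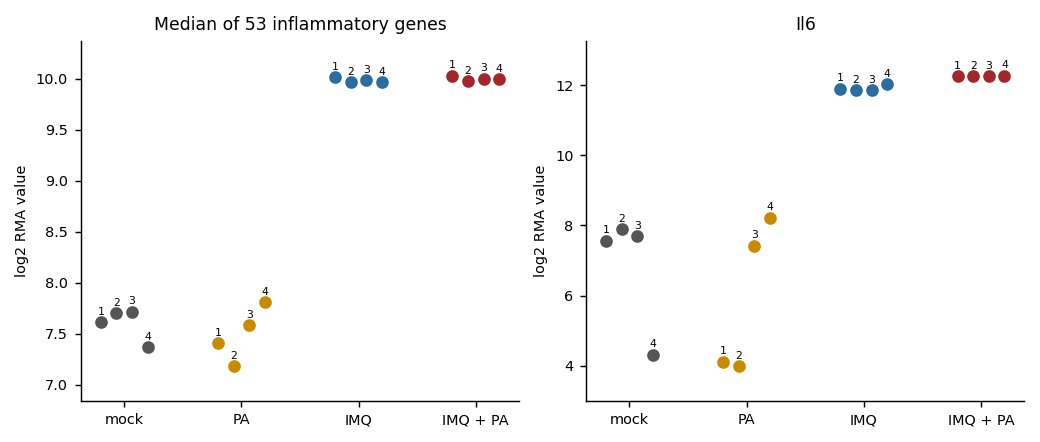
Left, the median log2 RMA value of 53 cytokine, chemokine and NF-kB genes on each of the 16 arrays; right, Il6 on the same arrays. Numbers beside points are replicate numbers; mock replicate 4 lies at 7.37 on the left and 4.32 on the right, below the other mock arrays, and the combined arrays lie at 9.97 to 10.03 and at 12.25 to 12.27.

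Other genes among the 12 largest rises were not on these lists. Gja1, the gap junction protein connexin 43, was at 5.34, 4.87, 5.41 and 5.11 in mock and 10.28, 10.30, 10.39 and 10.28 with both agents, a change of 5.13 ± 0.26 (adjusted p = 1.42e-10). It exceeded IMQ alone by 1.83 ± 0.26 (adjusted p = 7.81e-05). Penk, which encodes the opioid peptide precursor proenkephalin, was at 5.79, 5.74, 5.79 and 5.93 in mock, 6.69, 6.50, 6.70 and 6.56 with IMQ alone and 10.08, 10.06, 10.17 and 10.00 with both agents. Its groups were far apart, with a change of 4.26 ± 0.10 against mock (adjusted p = 3.17e-14) and 3.47 ± 0.10 against IMQ (adjusted p = 1.29e-12). Hdc, the enzyme that makes histamine, rose by at least 4.70 ± 0.23 (adjusted p = 7.46e-11), since its mock mean was dim, and stood 2.46 ± 0.23 above IMQ alone. Tmc3, a member of the transmembrane channel-like family that was also dim in mock, was higher by at least 4.40 ± 0.17 (adjusted p = 4.89e-12). Its combined arrays (8.44, 8.43, 8.35 and 8.26) lay close to its IMQ arrays (8.56, 8.52, 8.43 and 8.42).

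Interferon-stimulated genes rose in 15 of 16 cases and fell in 0, with a median change of 1.61. With IMQ alone, where 34.8% of all genes were called, 15 were higher and 0 lower, with a median of 1.84. Oasl1, which restrains translation of Irf7, rose by 3.48 ± 0.11, the antiviral genes Ifit1 and Rsad2 by 3.20 ± 0.11 and 2.94 ± 0.08, and the ubiquitin-like modifier Isg15 by 2.92 ± 0.11. Ifit3 did not pass the test, at 0.19 ± 0.12. Of 16 dendritic cell maturation genes, 15 rose and 1 fell, with a median of 1.25. The list had 15 higher and 1 lower with IMQ alone too, with a median of 1.18. The co-stimulatory ligands Cd80 and Cd86 rose by 2.52 ± 0.06 and 2.38 ± 0.07, and Tnfsf4, the ligand of OX40, by 2.80 ± 0.08. Cd86 was at 6.87, 6.92, 6.98 and 6.82 in mock and at 9.31, 9.25, 9.35 and 9.21 with both agents, with no overlap, and lay 0.97 ± 0.07 above IMQ alone (adjusted p = 2.21e-08). Pdcd1lg2, the inhibitory ligand PD-L2, was the member that fell, by 0.45.

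MHC class II presentation went the other way, with 11 of 13 genes lower, 2 higher and a median change of -0.62. With IMQ alone, where 34.8% of all genes were called, 10 were lower and 3 higher, with a median of -0.67. H2-DMa, which loads peptide onto class II molecules, was at 9.87, 9.95, 9.92 and 10.07 in mock and at 7.66, 7.79, 7.55 and 7.73 with both agents, a fall of -2.27 ± 0.06 (adjusted p = 1.01e-13). Ciita, the master activator of class II genes, changed by -1.43 ± 0.08 and Ifi30, a lysosomal thiol reductase, by -0.99 ± 0.04. The higher members were H2-Ob (0.94 ± 0.12) and H2-Oa (0.38 ± 0.07), the chains of H2-O, which restrains H2-DM. Toll-like receptors and adaptors were split, with 6 of 16 higher and 6 lower. Cd14, a co-receptor of TLR4, rose by 2.31 ± 0.08 and Tlr1 by 2.21 ± 0.08, while the endosomal receptors Tlr8 and Tlr13 changed by -1.68 ± 0.05 and -1.67 ± 0.05. Myd88, the adaptor of TLR7, was at 9.45, 9.49, 9.52 and 9.58 in mock and 9.42, 9.49, 9.41 and 9.67 with both agents, a difference of -0.01 ± 0.08 that did not pass the test. The Myd88 values of the groups overlapped, and its IMQ minus mock difference was 0.45. Myd88 met the equivalence test described below.

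The ER lists rose together. Hspa5 encodes BiP, the main ER chaperone of the Hsp70 family and the classical marker of the unfolded protein response. It was at 9.70, 9.76, 9.72 and 9.68 in mock and at 11.18, 11.09, 11.31 and 11.10 with both agents, so that every combined array lay above every mock array, with a change of 1.46 ± 0.06 (adjusted p = 1.01e-11), or 2.74-fold. PA alone had Hspa5 at 9.83, 9.89, 9.90 and 10.03 and IMQ alone at 9.96, 9.88, 10.00 and 9.83, changes of 0.20 and 0.21, and the combined group exceeded IMQ alone by 1.25 ± 0.06 (adjusted p = 4.59e-10). Of 18 ER chaperones and disulfide isomerases, 17 rose, 0 fell and the median was 0.66. Of 13 genes of ER-associated degradation, 12 rose and 0 fell, with a median of 0.52, and of 20 genes of ER translocation and glycosylation 17 rose and 1 fell, with a median of 0.40. With IMQ alone the same 3 lists had 9 higher and 6 lower, 7 and 3, and 5 and 5 calls against mock, where 34.8% of all genes were called. With PA alone they had 3, 2 and 2 genes higher and 0 lower, where 1.49% of all genes were called. These contrasts share the mock arrays. Against IMQ, where 21.1% of all genes were called, the combined group was higher in 15 of 18, 10 of 13 and 18 of 20 genes of the 3 lists and lower in 1, 0 and 0. At an unadjusted p under 0.05 in limma, 0 genes of the chaperone and degradation lists, the NF-kB list, the interferon list and the ATF4 list were below mock.

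The start-site regions of genes of these lists were searched for the ER stress response element, written CCAAT, 9 bases of any kind, then CCACG, on either strand. Promoters were RefSeq sequences (build GRCm38.p6) from 250 bases before to 50 bases after the annotated start of transcription. The element was present in 39 of 32851 such promoters (0.119%), which belonged to 37 of 27025 genes (0.137%). It was present in 10 of the 27 genes of the chaperone and degradation lists that had a promoter. These were Calr, Canx, Creld2, Dnajc3, Ero1b, Hsp90b1, Hspa5, Pdia6, Derl3 and Syvn1, of which Canx and Ero1b also met the equivalence test described below. The element was found in 0 of 15 such genes of the translocation list, 0 of 22 of the ATF4 list and 0 of 14 of the cytokines. A match describes letters in this window and is neither a binding site nor a cause. Matches are a property of the genes listed and not a result of this comparison. The 250 bases before the start are shown for 4 of these genes, chosen for the large changes of Creld2 and Derl3 and for both orientations of the element, 5′ to 3′ on the gene's strand with the element in capitals. They lie on the plus strand at chr2:34771840-34772089 for Hspa5, chr15:88819396-88819645 for Creld2, chr10:75893148-75893397 for Derl3 and chr19:6046326-6046575 for Syvn1.
Hspa5: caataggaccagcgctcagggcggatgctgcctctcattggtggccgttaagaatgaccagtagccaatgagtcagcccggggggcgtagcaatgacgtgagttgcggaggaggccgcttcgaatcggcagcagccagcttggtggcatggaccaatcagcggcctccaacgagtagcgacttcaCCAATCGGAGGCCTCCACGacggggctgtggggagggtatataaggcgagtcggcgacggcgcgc
Creld2: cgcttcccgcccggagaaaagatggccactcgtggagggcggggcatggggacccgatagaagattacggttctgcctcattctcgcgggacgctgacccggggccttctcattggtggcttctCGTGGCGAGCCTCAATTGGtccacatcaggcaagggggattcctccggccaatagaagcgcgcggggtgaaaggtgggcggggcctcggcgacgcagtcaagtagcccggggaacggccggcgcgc
Derl3: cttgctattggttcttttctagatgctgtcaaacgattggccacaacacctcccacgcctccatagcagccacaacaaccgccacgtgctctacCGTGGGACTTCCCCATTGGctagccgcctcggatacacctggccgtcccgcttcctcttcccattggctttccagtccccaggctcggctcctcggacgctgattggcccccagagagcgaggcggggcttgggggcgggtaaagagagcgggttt
Syvn1: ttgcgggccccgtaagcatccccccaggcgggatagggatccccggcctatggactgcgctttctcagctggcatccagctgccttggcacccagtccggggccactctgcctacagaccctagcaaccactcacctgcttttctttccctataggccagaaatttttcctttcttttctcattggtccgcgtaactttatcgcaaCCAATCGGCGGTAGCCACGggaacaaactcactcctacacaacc
The element begins 65 bases before the start in Hspa5, 44 in Syvn1, 126 in Creld2 and 156 in Derl3. In Hspa5 and Syvn1 it reads from CCAAT to CCACG along the gene's strand, and in Creld2 and Derl3 it is on the opposite strand.

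Derl3, a subunit of the channel that returns misfolded proteins to the cytosol, had the largest rise of the 3 ER lists. It was at 5.40, 5.63, 5.78 and 5.46 in mock, 6.15, 6.37, 6.26 and 6.42 with PA, 6.23, 6.12, 6.69 and 6.37 with IMQ and 9.45, 9.20, 9.49 and 9.47 with both agents. Every combined array lay well above the other 12, with a change of 3.84 ± 0.12 against mock (adjusted p = 3.27e-13) and 3.05 ± 0.12 against IMQ (adjusted p = 3.73e-11). Creld2, an ER disulfide isomerase, was at 9.05, 8.98, 9.07 and 9.03 in mock and 11.07, 11.01, 11.11 and 11.02 with both agents, a rise of 2.02 ± 0.05 (adjusted p = 6.81e-14). Dnajb9, a BiP co-chaperone, rose by 1.64 ± 0.06 and Hyou1, a large Hsp70-like chaperone, by 1.33 ± 0.05. In the degradation list Selenos changed by 1.10 ± 0.06, the ubiquitin ligase Syvn1 by 1.06 ± 0.06 and Herpud1 by 0.66 ± 0.05. Translocon subunits Sec61g and Sec61b rose by 0.97 ± 0.06 and 0.85 ± 0.10, the translocon-associated Ssr2 by 1.03 ± 0.04 and the oligosaccharyltransferase subunit Ostc by 1.00 ± 0.06. Stt3b, a catalytic subunit of the oligosaccharyltransferase, was the member that fell, by 0.17. Of the 20 translocation and glycosylation genes, 5 met the equivalence test described below. Among them were Stt3b, and Dad1 and Rpn1, which were both called higher. Edem1, a lectin that directs glycoproteins to degradation, did not pass the test at 0.01 ± 0.04, and its change took the opposite sign (-0.155, adjusted p = 0.0470) when all its probe sets were averaged. Edem1 also met the equivalence test, though not with that average.

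Regulators of the unfolded protein response had 8 of 15 genes higher and 1 lower, with a median change of 0.13. Ddit3, which encodes the stress factor CHOP, was at 7.40, 7.27, 7.42 and 7.35 in mock and 9.10, 9.06, 9.20 and 8.99 with both agents, a rise of 1.73 ± 0.07 (adjusted p = 6.01e-12). Ppp1r15a, the phosphatase subunit GADD34, rose by 1.49 ± 0.06, Creb3l2, an ER-anchored transcription factor, by 1.33 ± 0.07 and Atf4 by 1.14 ± 0.04. Bcl2l11, the pro-apoptotic BIM, fell by 0.50. Xbp1, the factor activated by IRE1 through splicing, which these gene-level values do not separate, was at 10.30, 10.25, 10.35 and 10.32 in mock and 10.43, 10.49, 10.45 and 10.39 with both agents. Its change of 0.13 ± 0.04 was called (adjusted p = 0.0118) yet small, and the call was lost in a fit of the groups compared only (adjusted p = 0.0658) and after repeated quantile normalization (adjusted p = 0.0611). Atf3, an early stress factor, was at 11.02, 11.03, 11.06 and 11.04 in mock and 10.93, 10.90, 10.97 and 10.92 with both agents, a difference of -0.11 ± 0.04 that did not pass the test (adjusted p = 0.0547), against -0.71 for IMQ alone. Its groups did not overlap. In limma a call appeared with a variance trend (adjusted p = 0.00297) and after repeated quantile normalization (adjusted p = 0.0103). It also appeared with dim genes left out (adjusted p = 0.0203) and without IMQ replicate 3 (adjusted p = 0.0462). Of the 15 regulators, 5 met the equivalence test described below, with Atf3 and Xbp1 among them.

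Effectors of ATF4 rose in 22 of 27 genes and fell in 0, with a median of 0.88. Ddit4, an inhibitor of mTORC1, was at 6.01, 5.71, 6.09 and 5.85 in mock and 9.41, 9.40, 9.33 and 9.49 with both agents, a rise of 3.50 ± 0.10 (adjusted p = 1.28e-13). The amino acid carriers Slc7a5 and Slc7a11 rose by 1.78 ± 0.08 and 1.78 ± 0.05, and the mitochondrial folate enzyme Aldh1l2, dim in mock, by at least 2.34 ± 0.11. Trib3, a pseudokinase that feeds back on ATF4, rose by 1.64 ± 0.07 (adjusted p = 3.26e-11). With IMQ alone 24 of 27 genes of this list were higher than mock, where 34.8% of all genes were called, and against IMQ, where 21.1% were, the combined group was lower in 16 genes and higher in 4. The letters TGATGNAA on either strand, a core of ATF4 elements, were in 9 of the 22 genes of this list with a promoter, against 4.51% of all genes with one. The same description for the core of the interferon-stimulated response element, which is GAAA, 2 bases of any kind and GAAA on either strand, gave 7 of 12 interferon-stimulated genes against 3.99%.

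Targets of NRF2, the regulator of antioxidant genes, rose in 11 of 13 genes and fell in 1, with a median of 0.85. Gclc, which catalyses the first step of glutathione synthesis, was at 8.03, 7.89, 7.97 and 7.96 in mock, 8.18, 8.04, 8.14 and 7.88 with IMQ and 9.76, 9.73, 9.78 and 9.78 with both agents. It rose by 1.80 ± 0.06 (adjusted p = 1.32e-12), and the IMQ arrays lay near mock. Srxn1, which repairs oxidised peroxiredoxins, rose by 1.35 ± 0.05, and Hmox1, heme oxygenase, by 0.88 ± 0.04 (adjusted p = 5.40e-11). Osgin1 was the member that fell, by 0.22, a call lost without combined replicate 1 or 4.

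AP-1 and immediate early genes rose in 16 of 21 cases and fell in 2, with a median of 1.19. The nuclear receptors Nr4a1 and Nr4a2 rose by 3.91 ± 0.11 and 3.74 ± 0.09, and Ier3 by 2.80 ± 0.07. Fos, a subunit of AP-1, was at 6.30, 6.23, 6.50 and 6.33 in mock, 7.25, 7.39, 7.30 and 7.43 with PA, 5.49, 5.23, 5.43 and 5.53 with IMQ and 8.90, 8.77, 8.87 and 8.73 with both agents, with no overlap between any of the 4 groups. Its change against mock was 2.48 ± 0.07 (adjusted p = 3.01e-13), while Jun, its common partner, changed by -1.02 ± 0.06 and Egr2 by -0.67 ± 0.06.

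Fos belongs to a set of 6 genes picked for called changes from mock of opposite sign with IMQ alone and with both agents. Both changes had to be at least 0.5 in size, and the genes with the largest gaps were taken. The values of these genes are thus a description of that choice. In all 6 the combined group lay above mock and IMQ alone below it. Lrrc32, which encodes GARP, a docking protein for latent TGF-beta, was at 8.80, 8.71, 8.91 and 8.83 in mock, 5.96, 5.72, 5.41 and 5.36 with IMQ and 9.34, 9.27, 9.44 and 9.23 with both agents. The combined arrays lay above all mock arrays, by 0.51 ± 0.10, and the IMQ arrays far below. Against mock replicate 4 alone the Lrrc32 change was 0.49 and lost its call (adjusted p = 0.0620). The other 4 genes were Mmp19, a matrix metalloproteinase, Fkbp11, an ER prolyl isomerase, Dcstamp, a protein of cell fusion, and Arfgef3, of the Arf exchange factor family. Their combined minus mock changes were 0.85 ± 0.05, 1.15 ± 0.11, 0.56 ± 0.04 and 1.09 ± 0.10, against -2.15, -1.37, -1.75 and -1.10 for IMQ minus mock. PA alone changed Fos by 1.00 and Fkbp11 by 0.63.

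Lipid genes ended in a mixed state. Among 22 genes of lipid oxidation and PPAR targets, 6 were higher, 10 lower and the median change was -0.16. With PA alone, where 1.49% of all genes were called, the list had 12 genes higher and 0 lower, and with IMQ alone, where 34.8% were, 1 higher and 13 lower. Fabp4, the fatty acid binding protein of adipocytes and macrophages, was at 11.27, 11.25, 11.18 and 11.19 in mock and 7.56, 7.58, 7.75 and 7.84 with both agents, a fall of -3.54 ± 0.07 (adjusted p = 9.56e-15). Pparg, the nuclear receptor that controls Fabp4, changed by -2.74 ± 0.08, Fabp5 by -1.87 ± 0.07 and the thiolase Acaa2 by -1.01 ± 0.05. Hilpda, an inhibitor of triglyceride lipase, was at 7.10, 7.12, 7.07 and 6.91 in mock and 10.68, 10.64, 10.69 and 10.55 with both agents, a rise of 3.59 ± 0.06 (adjusted p = 1.25e-15). Its PA and IMQ values alone stood 0.82 and 1.14 above mock. Cpt1a, the rate-limiting carrier of fatty acids into mitochondria, was at 8.87, 8.79, 8.93 and 8.97 in mock, 9.97, 9.94, 10.00 and 9.98 with PA, 7.72, 7.77, 7.84 and 7.64 with IMQ and 8.69, 8.63, 8.79 and 8.77 with both agents. The highest combined and the lowest mock value were nearly equal, and the change was -0.17 ± 0.05 (adjusted p = 0.0220), whose call was lost in several of the fits with 1 array left out, among them that without mock replicate 4 (adjusted p = 0.0736). Plin2, the coat protein of lipid droplets, was at 10.94, 10.97, 10.98 and 11.07 in mock, 12.02, 12.04, 12.04 and 11.99 with PA, 10.49, 10.39, 10.51 and 10.39 with IMQ and 11.33, 11.28, 11.37 and 11.21 with both agents. It ended 0.31 ± 0.05 above mock (adjusted p = 7.69e-05), which against mock replicate 4 alone was 0.23 and not called (adjusted p = 0.0538).

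Among 21 genes of lipid droplets and triglyceride synthesis, 7 were higher and 5 lower. Dgat2 and Dgat1, the enzymes of the last step of triglyceride synthesis, rose by 2.99 ± 0.29 and 1.08 ± 0.06, and Mgll, monoacylglycerol lipase, changed by -2.74 ± 0.08. Cholesterol synthesis had 11 of 18 genes lower and 1 higher, with a median of -0.31, led by Dhcr7 (-1.93 ± 0.09), which makes cholesterol from its last precursor. Fatty acid synthesis had 7 of 13 lower and 1 higher. The stearoyl desaturase Scd1 changed by -1.16 ± 0.06, fatty acid synthase Fasn by -0.99 ± 0.08 and the higher member, malic enzyme Me1, by 1.64 ± 0.10. Among LXR targets, 6 of 10 were lower and 3 higher, and the 2 sterol exporters diverged, with Abcg1 at -1.57 ± 0.04 and Abca1 at 0.91 ± 0.04. Ceramide and sphingolipid synthesis had 10 of 19 lower and 2 higher. Sptssb, a small subunit of serine palmitoyltransferase, the enzyme that joins palmitoyl-CoA to serine, was at 3.06, 3.58, 3.14 and 2.68 in mock, 3.05, 3.57, 3.20 and 3.35 with PA, 3.21, 3.30, 3.33 and 3.42 with IMQ and 6.51, 6.62, 6.95 and 6.20 with both agents. All 12 arrays without the combined treatment were dim for Sptssb, so its rise was at least 3.46 ± 0.17 (adjusted p = 1.01e-10). The ceramide synthases Cers5 and Cers6 changed by -1.27 ± 0.07 and -0.92 ± 0.05, and ceramide kinase Cerk by -1.37 ± 0.04.

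The deepest fall was that of Mamdc2, at 11.40, 11.33, 11.36 and 11.36 in mock and 5.66, 5.94, 6.13 and 5.96 with both agents, a change of -5.44 ± 0.14 (adjusted p = 6.48e-14). Ccr2, the chemokine receptor that brings monocytes from blood to tissue, was at 9.26, 9.24, 9.37 and 9.28 in mock and 4.36, 4.16, 4.96 and 4.76 with both agents. The combined mean was dim, so Ccr2 fell by at least 4.72 ± 0.14 (adjusted p = 2.27e-13), and its IMQ arrays lay at 4.87, 4.72, 4.83 and 4.49. Pld4, an endolysosomal exonuclease that trims nucleic acids, was at 11.24, 11.25, 11.27 and 11.32 in mock, 9.01, 9.10, 9.08 and 9.01 with IMQ and 7.51, 7.54, 7.61 and 7.63 with both agents. Its fall of -3.69 ± 0.04 against mock (adjusted p = 3.15e-17) went -1.47 ± 0.04 beyond IMQ alone (adjusted p = 2.28e-12). Hacd4, a dehydratase of very long chain fatty acid synthesis, was at 8.96, 8.96, 8.97 and 8.95 in mock and 5.11, 5.14, 5.29 and 5.27 with both agents, a change of -3.76 ± 0.05 against mock (adjusted p = 1.73e-16) and -1.63 ± 0.05 against IMQ (adjusted p = 5.78e-12). The remaining genes of the 12 largest falls were Pgap1, an enzyme of GPI anchor remodelling (-3.82 ± 0.09), Daglb, a diacylglycerol lipase (-3.75 ± 0.07), Slc36a2, an amino acid carrier (-3.65 ± 0.13), Tns1, a focal adhesion protein (-3.53 ± 0.13), and Fabp4. Clec4b1, a C-type lectin, Gask1b and the antisense transcript Dnmt3aos ended dim, with falls of at least 3.76, 3.59 and 3.54. Whether the array tells Dnmt3aos from its sense partner was not tested.

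Receptors were reset in both directions. Of 22 phagocytic and lectin receptors, 11 fell and 6 rose. The mannose receptor Mrc1 was at 10.19, 10.14, 10.22 and 10.17 in mock, 6.61, 6.44, 6.66 and 6.54 with IMQ and 7.68, 7.55, 7.48 and 7.75 with both agents, a fall of -2.56 ± 0.06 against mock (adjusted p = 4.74e-14) that left it 1.05 ± 0.06 above IMQ alone. The scavenger receptor Stab1 changed by -1.87 ± 0.06 and the apoptotic cell receptor Mertk by -1.58 ± 0.06, while the scavenger receptors Marco and Olr1 rose by 2.51 ± 0.10 and 2.50 ± 0.05. Among 9 chemokine receptors, 4 rose and 4 fell. Ccr7, which guides mature dendritic cells to lymph nodes, was at 10.23, 10.24, 10.23 and 10.08 in mock and 11.45, 11.44, 11.53 and 11.43 with both agents, a rise of 1.27 ± 0.05 (adjusted p = 6.04e-12), and the decoy-like receptor Ccrl2 rose by 3.02 ± 0.09. Of 15 matrix remodelling genes, 10 rose and 4 fell, with gelatinase Mmp9 at 2.94 ± 0.07 and the metalloproteinase inhibitor Timp2 at -2.18 ± 0.05.

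Growth genes were lower. In the cell cycle list 21 of 22 genes fell and 1 rose, with a median of -0.87. With IMQ alone, where 34.8% of all genes were called, 21 were also lower and 1 higher, with a median of -0.83. Ccna2, cyclin A2, was at 7.22, 6.91, 7.29 and 7.19 in mock and 4.04, 4.40, 4.15 and 3.73 with both agents, and since the combined mean was dim its fall was at least 3.07 ± 0.15 (adjusted p = 6.44e-11). Top2a, the topoisomerase of dividing cells, changed by -1.70 ± 0.08, and Tyms, thymidylate synthase, was the member that rose, by 1.02 ± 0.10. Cytosolic ribosomal proteins fell in 11 of 12 genes, with a median of -0.43 and the largest change in Rpl10a (-0.79 ± 0.06). The citrate cycle and respiratory chain had 13 of 21 lower and 3 higher, with changes between -0.57 (Idh3b) and 0.38 (Mdh2). Glycolysis and glucose uptake had 8 of 15 higher and 2 lower, with Pfkfb3, which stimulates glycolytic flux, at 0.91 ± 0.05. Of 16 p53 targets and apoptosis genes, 6 were higher and 5 lower, among them the cell cycle inhibitor Cdkn1a (1.37 ± 0.04) and the sestrin Sesn1 (-1.23 ± 0.08).

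**Figure D4:**
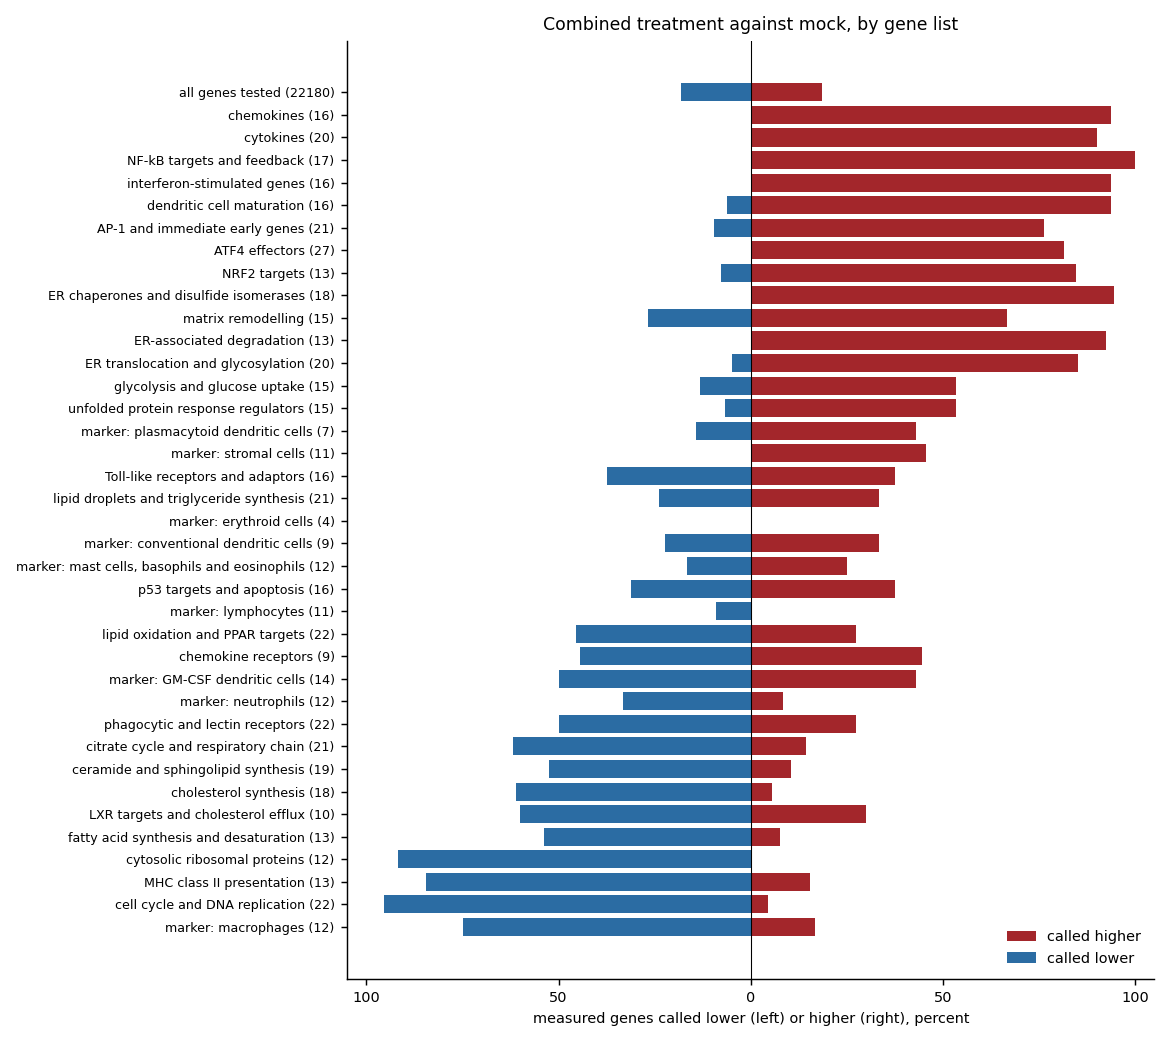
Share of the measured genes of each list called higher (right, red) and called lower (left, blue) in the combined group against mock, in percent, with the number measured in parentheses and lists ordered by median change. All genes tested stand at 18.4% higher and 18.1% lower; the NF-kB, chemokine and ER chaperone lists are almost wholly on the right, the cell cycle, ribosomal and MHC class II lists on the left.

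Some markers of other cell types were called in the same comparison, in which 18.4% of all genes were called higher and 18.1% lower. Counts near those shares do not single out a cell type. The part of these cells in the results above was not tested. Of 12 macrophage markers, 9 were lower and 2 higher, with a median of -1.09, and the log2 of their summed linear values was 14.7 to 14.8 in mock and 14.2 to 14.3 with both agents. The complement genes C1qa, C1qb and C1qc changed by -2.13 ± 0.08, -2.31 ± 0.05 and -2.26 ± 0.08, while Adgre1, an adhesion receptor of macrophages, rose by 1.15 ± 0.05. Of 11 stromal markers, 5 were higher and 0 lower (1 lower at an unadjusted p under 0.05 in limma), 3 were dim in every group, and the log2 of the sum was 8.87 to 8.94 in mock and 10.0 to 10.1 with both agents. The leptin receptor Lepr rose by 3.26 ± 0.10, the platelet-derived growth factor receptor Pdgfrb by 2.03 ± 0.12 and the proteoglycan Dcn, dim in mock, by at least 2.47 ± 0.14. The stromal collagen Col1a2 was at 5.37, 5.43, 5.50 and 5.24 in mock and 5.52, 5.27, 5.35 and 5.43 with both agents, with overlapping values. Of 12 neutrophil markers 1 was higher, 4 lower and 5 dim, and the log2 sum was 9.47 to 9.49 in mock and 9.25 to 9.37 with both agents. Of the 14 markers of GM-CSF dendritic cells themselves, 6 were higher and 7 lower, with a median of -0.18. Among them Cd86 rose by 2.38, while Itgax, the CD11c gene, fell by 1.79 (adjusted p = 6.48e-14) and H2-Aa by 0.62.

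Whether a gene ended at its mock level was asked with an equivalence test, in which the difference had to lie within 0.3 log2 units of mock at an adjusted p under 0.05. Of all 22180 genes, 4777 (21.5%) met it, 9669 were neither called nor shown to be at the mock level, and 363 were both, being small called changes. Of genes above the dim level in any of the groups 25.8% met it, and of genes dim in every group 14.9%. IMQ alone raised 571 genes by at least 1, and 6 of these (1.05%) ended at the mock level when PA was added. IMQ alone lowered 567, and 7 of these (1.23%) ended there. For the remaining genes moved by IMQ a return to mock was not shown.

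The 6 raised genes were Radx, a guardian of replication forks, Fyb, an adaptor of integrin signalling, Ticam2, the TRAM adaptor of TLR4, Acp5, tartrate-resistant acid phosphatase, Itgal, the alpha chain of the integrin LFA-1, and Sephs2, an enzyme of selenocysteine synthesis. Fyb was at 8.42, 8.51, 8.39 and 8.37 in mock, 9.51, 9.62, 9.62 and 9.58 with IMQ and 8.45, 8.50, 8.46 and 8.57 with both agents. The combined values lay inside or just above the mock range and all below the IMQ range, and the difference from mock was 0.07 with a 90% interval of -0.01 to 0.16. Ticam2 was at 8.35, 8.32, 8.37 and 8.21 in mock, 9.39, 9.51, 9.46 and 9.41 with IMQ and 8.23, 8.39, 8.44 and 8.43 with both agents, with a 90% interval of -0.05 to 0.17 around 0.06. Itgal and Sephs2 ended slightly below mock, at -0.17 ± 0.04 and -0.14 ± 0.05, and these small changes were also called (adjusted p = 0.00492 and 0.0277). The call of Sephs2 was lost without mock replicate 1 or 3 and without combined replicate 2, 3 or 4. The intervals of Radx and Acp5 were -0.03 to 0.23 and 0.03 to 0.21.

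The 7 lowered genes were Clec7a, the fungal glucan receptor dectin-1, Plet1, a surface protein, Slc37a2, a sugar phosphate carrier, Plaur, the urokinase receptor, Lmna, which encodes lamins A and C, Cd36, the fatty acid and lipoprotein receptor, and Arrdc3, an arrestin family member. Clec7a was at 12.06, 12.002, 12.004 and 12.01 in mock, 10.47, 10.42, 10.50 and 10.43 with IMQ and 11.89, 11.84, 11.90 and 11.94 with both agents. IMQ alone stood -1.56 from mock, and the combined group ended at -0.12 ± 0.04, with an interval of -0.19 to -0.05. This small change was also called (adjusted p = 0.0221), though not without mock replicate 1 or without combined replicate 2. Cd36 was at 11.07, 11.07, 11.06 and 11.05 in mock, 11.58, 11.59, 11.60 and 11.59 with PA, 10.01, 9.97, 9.92 and 9.94 with IMQ and 10.89, 10.85, 10.90 and 10.97 with both agents. Its PA arrays lay above and its IMQ arrays below mock, and the combined group ended at -0.16 ± 0.04, a small called change (adjusted p = 0.00402). Plaur was at 10.27, 10.28, 10.36 and 10.38 in mock and 10.30, 10.13, 10.26 and 10.19 with both agents, against 9.20, 9.13, 9.13 and 9.05 with IMQ. The intervals were -0.18 to 0.03 for Plet1, -0.14 to 0.06 for Slc37a2, -0.18 to -0.01 for Plaur, -0.17 to 0.04 for Lmna and 0.00 to 0.23 for Arrdc3. The smallest miss was Cpt1a, which IMQ alone had lowered by 1.15 and which ended at -0.17 with an equivalence adjusted p of 0.0622. Next came Zfp532 (-0.13, equivalence adjusted p = 0.0700).

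**Figure D5:**
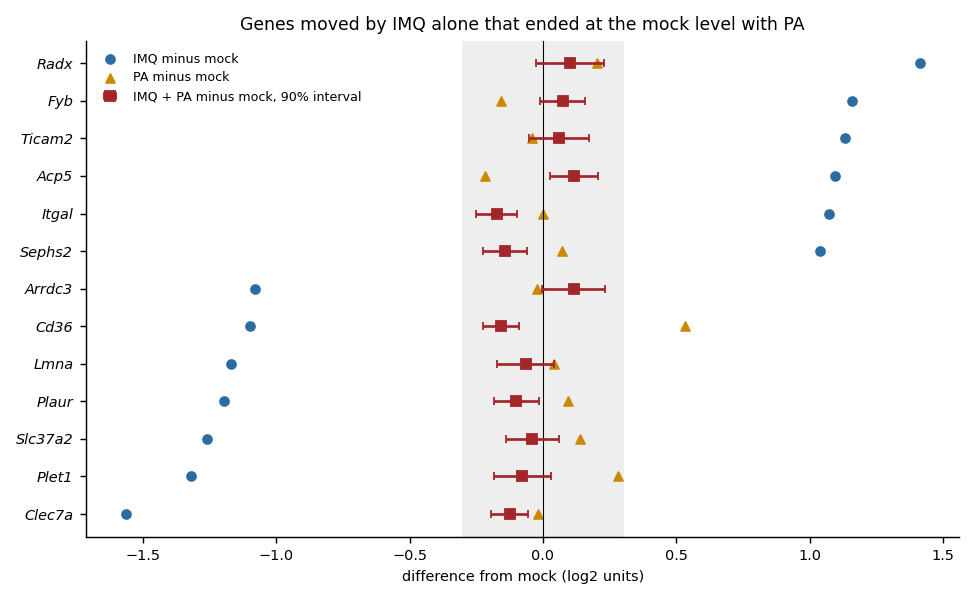
Difference from mock (log2 units) of the 13 genes that IMQ alone moved by at least 1 and that ended at the mock level with both agents. Blue circles are IMQ alone, yellow triangles PA alone and red squares the combined group with its 90% interval, and all 13 intervals lie within the grey band of 0.3 to each side of 0.

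The count of these 13 genes moved with the margin and the arrays used. With a margin of 0.2, 0 of them met the test, although the unadjusted 90% interval of 7 lay within 0.2. At that margin 0 of all genes tested met it, so the setting could not tell these genes from others. A fit with mock replicate 4 as the lone mock array cannot decide the question, since 1 array leaves the difference too imprecise for the margin. With a margin of 0.5 the counts were 20 raised and 18 lowered. Leaving out 1 array at a time gave between 3 and 6 raised and between 6 and 8 lowered genes. Acp5, Fyb, Ticam2, Clec7a, Plet1, Slc37a2, Plaur, Lmna and Cd36 held in every fit that left out 1 array, and Radx, Itgal, Sephs2 and Arrdc3 did not. Among genes that PA alone raised by at least 0.5, 3 of 47 ended at the mock level with both agents, namely Cd36, Pde3b and Slc16a10.

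Some list members that IMQ alone moved by less than 1 also ended at the mock level. They included Fcgr1, the high-affinity IgG receptor (0.84 with IMQ, -0.05 with both agents), Eif2ak3, which encodes PERK (-0.73 and -0.14), and the sphingosine kinase Sphk1 (-0.61 and 0.04). Of 28 alternative settings, 26 kept this for Fcgr1 but 8 for Eif2ak3 and 10 for Sphk1, which both lost it with the replicate block and with any mock or combined array left out. The same result was kept in 26 settings for Atf3 and Myd88 and in 25 for Xbp1 and Edem1. In the cholesterol list 7 of 18 genes met the test, against 21.5% of all genes. Insig1, the retention protein of the sterol sensor, stood 0.43 from mock with PA, -0.59 with IMQ and -0.01 with both agents, and Sqle and Fdps did likewise, at 0.40, -0.41 and 0.13 and at 0.50, -0.46 and 0.08. The result for Insig1 was kept in 26 of the settings, for Sqle in 19 and for Fdps in 18. Of the cytokine, NF-kB, interferon, maturation and cell cycle lists, 0 genes met the equivalence test in limma, and the unadjusted 90% interval of 1 cytokine and 1 NF-kB gene lay within the margin. Of the 18 ER chaperone genes 3 met it, beside 21.5% of all genes. They were Canx, kept in 25 settings, and Ero1b and Mzb1, each kept in 16 and lost with the replicate block. Canx and Ero1b were also called higher, as small changes, and count among the 17 that rose. In the ER translocation and glycosylation list 5 of 20 genes met the test, among them Rpn1, Dad1 and Stt3b, kept in 25, 24 and 20 settings.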

How the data were processed

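The 16 arrays were 1-colour Affymetrix mouse whole-transcript arrays hybridised with labelled DNA made from 200 ng of total RNA each, per the labels' protocols. The authors deposited log2 values made with RMA and affy, per the submitters' processing notes, which give no version; the genome build is not given in the sources used here. RMA corrects background, sets the distribution of all arrays equal and summarises probes, so a shift shared by most genes of an array is removed. An array has no read depth, and the number of arrays limits the precision.

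The deposited table held 41345 probe sets, of which 1814 had several symbols in the platform annotation and 16010 none listed, and these were not used. Of the other 23521, 23328 were found in RefSeq by gene number (assembly GRCm38.p6). For 1082 genes with several probe sets the one with the highest mean was used, which left 22180 genes. Over the 16 arrays, 4 group means were estimated in R 4.3.3 by limma 3.58.1 (eBayes, 12 residual and 2.96 prior degrees of freedom), two-sided, with Benjamini-Hochberg adjustment over all genes and no filter on dim genes. Equivalence used 2 one-sided moderated tests with a margin of 0.3, adjusted over all genes. IMQ raised or lowered a gene where its change was called and at least 1. The steps were tested on simulated data.

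The comparison, the 37 gene lists (594 distinct genes, 547 measured, 47 not analysed here) and the rules were chosen with earlier results of these data known. The naming rule took the 12 highest and 12 lowest changes among called genes with separate values, up to 10 genes raised and 10 lowered by IMQ that ended at the mock level, the 6 genes most opposed to IMQ, up to 4 genes per list in the main direction, 2 in the other and 3 at the mock level, and 15 preset genes. Predicted loci and sensory receptors were left out, though list members and preset genes carried no such filter. Genes dim in both mock and combined groups were left out of the highest and lowest changes. Those dim in both mock and IMQ groups were left out of the genes raised or lowered by IMQ. No dim filter applied to the genes opposed to IMQ, the list members or the preset genes. Il15, Ifnb1, Ccl24, Ifit3, Zfp532, Pde3b, Slc16a10 and the genes named only for a promoter match lie outside it and were chosen after their values were seen. Alternatives covered normalization, the arrays fitted, moderation, a replicate block, probe set choice, dim genes, each array left out, mock replicate 4 alone, the equivalence margin, the IMQ size and the definition of the mock level.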

Additional observations from a re-analysis of the deposited data

Results flagged for a closer look

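Among 158 genes named in the report, each with a mock and a combined group of 4 arrays, 23 of 316 groups (7.28%) had 1 array whose gap to the others was large against the range of the group. Chance alone gives about 1 in 20 such groups. Of the 23, 13 were in mock replicate 4.

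In 9 of those 13, the array was low in an inflammatory gene or in Hdc, the histamine-forming enzyme. It read 4.32 for Il6 (others 7.57 to 7.90), 5.30 for Ptgs2 (others 8.49 to 8.95), 4.40 for Cxcl3 (others 8.66 to 9.15), 4.82 for Cxcl2 (others 7.03 to 7.21), 5.57 for Nos2 (others 7.77 to 7.96), 9.40 for Il1b (others 11.1 to 11.3), 4.75 for Il12a (others 6.06 to 6.20), 6.38 for Socs3 (others 6.73 to 6.77) and 3.84 for Hdc (others 4.85 to 4.99). Without it the changes of Il1b, Il12a, Socs3 and Hdc were 1.99, 3.77, 2.75 and 4.43, and those of the other 5 genes are in the report. The same array read 9.66 for Acp5, 10.1 for Ccr7, 10.3 for Abca1 and 10.0 for Jun, each within 0.2 of the nearest other array.

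In the other mock arrays, replicate 1 read 12.1 for Clec7a and 7.79 for Dhcr7, and replicate 3 read 10.6 for Ifi30. In the combined group, replicate 2 read 9.20 for Derl3 (others 9.45 to 9.49), 4.41 for Gask1b (others 4.87 to 4.97) and 9.63 for Nr4a2. Replicate 1 read 9.31 for Fabp5, replicate 3 read 11.5 for Ccr7, and replicate 4 read 7.62 for Fasn and 8.35 for Slc7a5.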

How the results depend on the processing

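All 28 alternative settings kept the direction and the call of Il23a, Il12b and Hspa5 where the setting applied to them, and the counts of called genes stayed within 1.5 times of 8097, between 5879 (mock replicate 4 alone) and 8216 (variance trend). Of 6470 comparisons over the 270 genes admitted by the naming rule, 6329 kept direction and call, 113 lost the call, 27 gained it and 1 reversed, Edem1 at -0.155 (adjusted p = 0.0470) with the mean of all its probe sets. Of 1776 list counts, 1724 stayed within 1.5 times. Genes at the mock level were the result that moved. A margin of 0.2 gave 0 raised by IMQ, 0 lowered and 0 in all, so that setting could not tell genes apart. The fit with mock replicate 4 as the lone mock array, which is then assumed to vary like the other groups, was too imprecise to decide equivalence. A margin of 0.5 gave 20, 18 and 15964. With an IMQ change of at least 0.5 the counts were 29 raised and 49 lowered. With the mock level taken as a change not called, 15 lowered genes and 14083 of all genes were counted. Leaving out 1 array at a time gave 3 to 6 raised genes, 6 to 8 lowered and 3055 to 4964 of all, the lowest for the raised without mock replicate 2 and for all genes without mock replicate 1. Deviations from the group means correlated at -0.12 to 0.17 over 24 pairs of same-numbered arrays of different groups, 4 of them over 0.1, and 7 of 16 arrays correlated best with an array of their own number. The numbers were not taken as pairs. With the replicate block 8127 genes were called and 13 of 13 genes at the mock level were kept. The alternatives that left a cause open were not examined for one. The 16 arrays limit precision, and dim probe sets bound changes only from one side.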

Other observations

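Markers of other cells of such cultures gave the following values, beside 18.4% of all genes called higher and 18.1% called lower. Counts near those shares do not single out a cell type. Of 9 measured markers of conventional dendritic cells, 3 were higher, 2 lower and 4 dim in every group, with Cd24a, a surface sialoglycoprotein, at 0.81 ± 0.05, and the log2 of their summed linear values was 12.4 in mock and 12.5 to 12.6 with both agents. Of 7 markers of plasmacytoid dendritic cells, 3 were higher, 1 lower and 3 dim, with the interferon-induced Bst2 at 0.94 ± 0.06, and the log2 sum was 10.7 to 10.9 in mock and 11.6 to 11.7 with both agents. Of 12 markers of mast cells, basophils and eosinophils, 3 were higher and 2 lower, with Siglecf, a sialic acid receptor of eosinophils and some macrophages, at -2.40 ± 0.06. Of 11 lymphocyte markers 0 were higher and 1 lower, and of 4 erythroid markers 0 were called, with 0 at an unadjusted p under 0.05 in limma. Of 12 neutrophil markers 1 was higher and 4 lower. The higher one was S100a8, also made by activated myeloid cells, at 1.78 ± 0.08, and among the lower ones the G-CSF receptor Csf3r was at -1.56 ± 0.05.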
